A study of Mus musculus with 5 samples.

Results

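The 10 genes followed here are the endothelial genes Apln, Aplnr, Kdr, Flt1, Tek, Pecam1, Cdh5, Car4, Ednrb and Plvap, chosen by their gene symbols out of the 23183 symbols counted in whole-lung RNA. They name the capillary bed of the lung and its signals for vessel growth. All samples came from female wild-type (WT) BALB/c mice, and there were 5 groups with 1 library each. The PM10/OVA/Dex group received PM10 (inhalable airborne particulate matter), ovalbumin (OVA, a protein allergen) and dexamethasone (Dex), a synthetic glucocorticoid, 3 times during the final week. The PM10/OVA/CPX group received PM10, OVA and a chitinase-1 inhibitor called CPX, 6 times in 3 weeks. The PM10/OVA group received both exposures alone, the PM10 group PM10 alone, and the Control group is labelled as having no treatment. PM10 went into the nose 4 times within 2 weeks, OVA was injected into the peritoneum and later put into the nose, both drugs were injected, and lungs were collected 2 days after the final challenge. The sources used here give neither doses nor the age of the mice, and do not say if RNA of several mice was pooled into a library. The series title names airway inflammation, fibrosis and chitinase-1 as the subject of the study.

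Endothelial cells line the blood vessels, and in the alveoli they face the air spaces across a thin wall. VEGF-A, a growth factor secreted largely by the alveolar epithelium, acts on them through the receptor tyrosine kinase VEGFR2 (Kdr), while VEGFR1 (Flt1) binds the same ligand tightly and acts in large part as a trap for it. Angiopoietin-1 keeps vessels quiet through the receptor TIE2 (Tek), and the apelin peptide (Apln) acts on neighbouring endothelial cells through its G-protein-coupled receptor (Aplnr). Mouse alveoli hold 2 kinds of capillary cell. Aerocytes, specialised for gas exchange, are marked by Car4, Ednrb, Apln and high Kdr. General capillary cells, which can divide and give rise to aerocytes, are marked by Aplnr and Plvap.

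Apln, Ednrb and Car4 are all aerocyte markers, and they did not take the same order over the 5 libraries, so their promoters are shown. Each runs from 250 bases before to 50 bases after the RefSeq start of the gene (table of build GRCm38.p6), on the strand of the gene, written 5′ to 3′. The Apln promoter lies at chrX:48034804-48035103 on the minus strand, that of Ednrb at chr14:103843652-103843951 on the minus strand, and that of Car4 at chr11:84957504-84957803 on the plus strand. Capitals mark GGAAG, the short core bound by ETS factors such as ERG, and its reverse complement CTTCC.
Apln: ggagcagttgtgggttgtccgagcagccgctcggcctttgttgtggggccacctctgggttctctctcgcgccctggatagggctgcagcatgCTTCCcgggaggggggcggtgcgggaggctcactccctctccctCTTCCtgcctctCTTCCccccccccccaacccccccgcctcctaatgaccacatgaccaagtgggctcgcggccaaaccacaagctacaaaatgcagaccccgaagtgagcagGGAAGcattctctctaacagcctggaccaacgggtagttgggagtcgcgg
Ednrb: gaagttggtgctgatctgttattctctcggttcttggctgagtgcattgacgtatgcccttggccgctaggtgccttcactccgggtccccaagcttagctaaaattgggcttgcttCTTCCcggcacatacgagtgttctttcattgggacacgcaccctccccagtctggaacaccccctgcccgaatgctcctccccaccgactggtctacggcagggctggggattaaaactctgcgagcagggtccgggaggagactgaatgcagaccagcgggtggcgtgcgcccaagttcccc
Car4: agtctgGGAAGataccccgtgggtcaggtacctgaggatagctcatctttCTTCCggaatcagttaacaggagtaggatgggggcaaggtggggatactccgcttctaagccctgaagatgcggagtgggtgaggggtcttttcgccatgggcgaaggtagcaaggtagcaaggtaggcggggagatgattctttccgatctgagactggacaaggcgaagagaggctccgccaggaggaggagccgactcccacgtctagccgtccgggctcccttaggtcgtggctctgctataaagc
The core occurred 4 times in the Apln promoter, 1 time in that of Ednrb and 2 times in that of Car4. The RefSeq table held a promoter for 6 of the 10 genes (Apln, Kdr, Flt1, Tek, Car4 and Ednrb), and 5 of these 6 held the core, Tek being the exception. Of all 32851 promoters of that length, 71.4% held it on either strand, so its presence does not set these genes apart. A longer ETS core, CCGGAA, was found in Kdr and Car4 and in 14.9% of all promoters, and the motifs can overlap. ACGTG, the core of the hypoxia response element, was found in Car4 alone of the 6 (19.6% of all promoters), and the SOX core ACAAT in Tek alone (31% of all promoters). TATAAA was found in Flt1 and Car4, and in 13.6% of all promoters. These are matches of letters, not binding sites.

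Library totals ran between 11993222 and 16929068 counts. Levels are given in CPM, that is, each count relative to the total of its library, corrected by trimmed-mean-of-M-values (TMM) factors, which lay between 0.989 and 1.02. A gene counted as measured at a mean of at least 1 CPM, which 14305 symbols reached. All 10 endothelial genes were among them, with between 803 and 17257 counts in any library. With 1 library per group there was no replicate check and no test between conditions, so each difference is one between libraries. The bracketed 95% intervals are exact and cover counting error only. The list of 20 other endothelial genes (among them Cldn5, Tie1, Erg and Emcn) was detected in full in every library. Its summed level was 6151 CPM in PM10/OVA/Dex, 5067 CPM in PM10/OVA/CPX, 4935 CPM in PM10/OVA, 4931 CPM in PM10 and 5778 CPM in Control. The Control library stood apart in markers of other tissues. The summed level of 8 cardiomyocyte markers was 243.8 to 651.5 CPM in the exposed libraries and 3077 CPM in Control. The Control sums of adipocyte, cartilage and smooth muscle markers were the highest of the 5 too. Summed leukocyte markers came to 1066 to 1466 CPM in the exposed libraries and 811.6 CPM in Control. No member of the cardiomyocyte, smooth muscle or leukocyte lists was at 0 in any library.

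Per kilobase of transcript, the scale on which genes can be set against each other, the junction and capillary genes led and the apelin genes came last, except for Aplnr in PM10/OVA/CPX. Plvap took first place in PM10/OVA/Dex (314.6 CPM per kilobase), PM10/OVA/CPX (275.8) and PM10/OVA (307.2), while Pecam1 was first in PM10 (264.2) and in Control. In Control the order of levels was Pecam1 (280.4 CPM per kilobase), Cdh5 (249.1), Plvap (245.2), Car4 (147.6), Tek (131.4), Kdr (113.6), Ednrb (55.9), Flt1 (42.2), Aplnr (38.4) and Apln (35.1). Only Cdh5 and Plvap had overlapping counting intervals among neighbours in that order. Car4, Tek and Kdr held places 4, 5 and 6 in all 5 libraries. In the lower places, Aplnr passed Ednrb and Flt1 in PM10/OVA/CPX alone, and Ednrb and Flt1 had overlapping intervals in PM10/OVA/Dex and in PM10/OVA, as did Plvap with Cdh5 and Aplnr with Apln in PM10.

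Over the 5 libraries the 10 genes differed as much as most genes did. Their median range was 0.49 on the log2(CPM + 1) scale, beside 0.45 over all measured genes, whose quartiles were 0.30 and 0.69. Apln had the widest range (0.70), followed by Aplnr (0.68), Kdr (0.63), Ednrb (0.55) and Plvap (0.51). Flt1 (0.46), Tek (0.45), Car4 (0.39) and Cdh5 (0.33) came next. Pecam1 had the narrowest, 0.10, with its highest level only 1.07-fold its lowest.

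**Figure D1:**
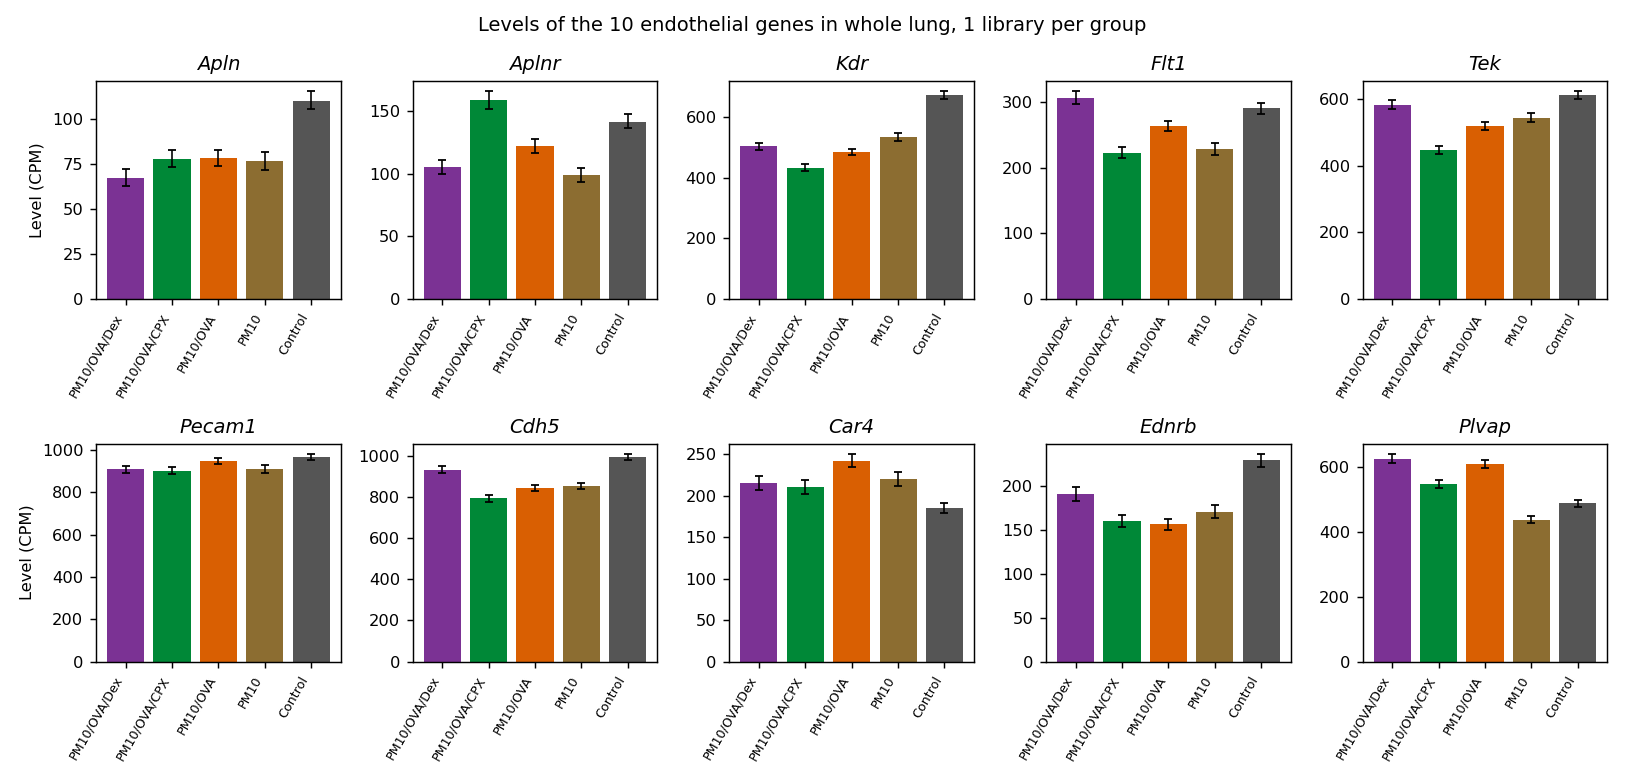
Levels of the 10 endothelial genes in CPM (y axis, from 0) in the 5 libraries, with 1 bar per library and exact 95% Poisson intervals that cover counting error only. Apln, Kdr and Ednrb stand highest in Control, Car4 stands lowest there, Plvap is lower in PM10 and Control than in the 3 libraries given OVA, and Pecam1 is nearly level.

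The apelin ligand was lower in every exposed library, while its receptor varied among them. Apln (GRCm38 chromosome X, 48025146 to 48034853, 3 exons) was at 67.5 CPM in PM10/OVA/Dex, 78.1 CPM in PM10/OVA/CPX, 78.6 CPM in PM10/OVA, 76.7 CPM in PM10 and 110.5 CPM in Control. Upper bounds in the exposed libraries did not pass 83.1 CPM, and the Control interval, 105.6 to 115.6 CPM, overlapped none of them. The PM10 to Control ratio was 0.694 (0.641 to 0.751) and the PM10/OVA to Control ratio 0.711. In whole lung, fewer capillary cells and less Apln RNA per cell cannot be told apart, and this holds for each gene below.

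Aplnr (chromosome 2, 85136225 to 85139923, 1 exon) was at 105.5 CPM in PM10/OVA/Dex, 158.8 CPM in PM10/OVA/CPX, 122.5 CPM in PM10/OVA, 98.99 CPM in PM10 and 141.9 CPM in Control. PM10/OVA/CPX was the highest library and PM10 and PM10/OVA/Dex the lowest, with overlapping intervals between these last 2 alone. Relative to PM10/OVA, the ratio was 0.861 with Dex and 1.30 (1.22 to 1.38) with CPX. The PM10/OVA/Dex to PM10/OVA/CPX ratio was 0.664 (0.619 to 0.714), the largest difference of any of the 10 genes over the 6 comparisons made. Apela, the gene of the second ligand of the receptor, had between 2 and 5 counts per library and could not be compared. Of 6 measured signalling partners and peptidases of the axis, none was 1.5-fold higher (8.02% of measured genes) or lower (5.89%) in PM10 against Control. One of them, Arrb2 (beta-arrestin 2, also abundant in leukocytes), passed 1.5-fold in PM10/OVA against Control, where 8.15% of measured genes were higher. It was at 52.6 CPM in PM10/OVA and 32.2 CPM in Control.

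Both VEGF receptors were lower in PM10 than in Control, and both were highest with Dex and lowest with CPX among the 3 libraries given OVA. They differed in where PM10 and Control stood relative to those 3. Kdr (chromosome 5, 75932827 to 75978458, 30 exons) was at 503 CPM in PM10/OVA/Dex, 433 CPM in PM10/OVA/CPX, 485 CPM in PM10/OVA, 536 CPM in PM10 and 673 CPM in Control. Control was highest and PM10/OVA/CPX lowest, and neither interval overlapped another library's. The ratio to Control was 0.796 (0.773 to 0.821) in PM10 and 0.722 in PM10/OVA.

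Flt1 (chromosome 5, 147561604 to 147726011, 30 exons) was at 306 CPM in PM10/OVA/Dex, 223 CPM in PM10/OVA/CPX, 263 CPM in PM10/OVA, 228.5 CPM in PM10 and 291 CPM in Control. Here PM10/OVA/Dex and Control were the highest, with overlapping intervals, and PM10/OVA/CPX and PM10 the lowest, overlapping likewise. The PM10/OVA/Dex to PM10/OVA/CPX ratio was 1.38 (1.31 to 1.45).

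Among the ligands, Vegfa was at 489 CPM in PM10/OVA/Dex, 427 CPM in PM10/OVA/CPX, 472 CPM in PM10/OVA, 452 CPM in PM10 and 589 CPM in Control. Like Kdr it was highest in Control and lowest in PM10/OVA/CPX, with a PM10 to Control ratio of 0.767 (0.742 to 0.793). Vegfb, a ligand of VEGFR1 alone, was at 27.0 CPM in PM10/OVA/Dex, 18.1 CPM in PM10/OVA/CPX, 22.7 CPM in PM10/OVA, 22.1 CPM in PM10 and 31.4 CPM in Control. Pgf (placental growth factor), which also binds VEGFR1 and not VEGFR2, was at 4.46 CPM in PM10/OVA/Dex, 5.51 CPM in PM10/OVA/CPX, 9.21 CPM in PM10/OVA, 4.89 CPM in PM10 and 3.52 CPM in Control. It was thus highest in PM10/OVA, with a ratio of 2.62 (1.93 to 3.59) to Control and of 1.88 (1.38 to 2.60) to PM10. The lymphatic growth factors Vegfc (7.82 to 10.4 CPM) and Vegfd, listed as Figf (38.2 to 53.7 CPM), varied less than Vegfb and Pgf. Among all 8 measured ligands and further receptors of the pathway, Pgf was the only one to pass 1.5-fold in PM10/OVA against Control, against PM10, or in either drug library against PM10/OVA. Of all measured genes, 8.15% were higher and 7.19% lower by that fold in PM10/OVA against Control. The shares were 2.85% and 4.73% in PM10/OVA against PM10. Against PM10/OVA, they were 3.03% and 3.12% with CPX, and 4.63% and 5.47% with Dex.

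Tek (chromosome 4, 94739289 to 94874976, 23 exons) was at 583 CPM in PM10/OVA/Dex, 448 CPM in PM10/OVA/CPX, 519 CPM in PM10/OVA, 544 CPM in PM10 and 611 CPM in Control. Control was highest and PM10/OVA/CPX lowest. The PM10/OVA/CPX to PM10/OVA ratio was 0.863, and the PM10/OVA/Dex to PM10/OVA/CPX ratio 1.30 (1.26 to 1.35). Its activating ligand Angpt1, made mainly by mural and other mesenchymal cells, was at 169 CPM in PM10/OVA/Dex, 120 CPM in PM10/OVA/CPX, 103 CPM in PM10/OVA, 113 CPM in PM10 and 143 CPM in Control. The ratio of Angpt1 to its PM10/OVA level was 1.64 (1.54 to 1.76) with Dex and 1.17 with CPX. Angpt2, the ligand that endothelial cells store and that often opposes Angpt1, was between 26.0 and 29.8 CPM in the exposed libraries and 38.7 CPM in Control. Among the 6 measured genes of this axis beside Tek, Dok2, an adaptor of TIE2 that leukocytes also express, had the largest ratios in PM10/OVA against Control, in PM10/OVA against PM10 and in PM10/OVA/Dex against PM10/OVA. It was at 10.6 CPM in PM10/OVA/Dex, 25.2 CPM in PM10/OVA/CPX, 27.6 CPM in PM10/OVA, 13.5 CPM in PM10 and 14.4 CPM in Control, with a PM10/OVA/Dex to PM10/OVA ratio of 0.383 (0.312 to 0.469).

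The 2 pan-endothelial adhesion genes were the steadiest. Pecam1 (CD31, chromosome 11, 106654217 to 106750628, 16 exons) was at 908 CPM in PM10/OVA/Dex, 900.5 CPM in PM10/OVA/CPX, 947 CPM in PM10/OVA, 909 CPM in PM10 and 965 CPM in Control. PM10/OVA and Control overlapped, and the other 3 libraries overlapped among themselves. The summed leukocyte level was lowest in Control, and its part in the Pecam1 level was not tested. Cdh5 (VE-cadherin, the adhesion molecule of endothelial junctions, chromosome 8, 104101625 to 104144511, 12 exons) was at 934 CPM in PM10/OVA/Dex, 794 CPM in PM10/OVA/CPX, 847 CPM in PM10/OVA, 854.5 CPM in PM10 and 995 CPM in Control. It was lowest in PM10/OVA/CPX and highest in Control, next to PM10/OVA/Dex. Cdh5 overlaps Gm29682 on the opposite strand, and since the sources used here do not give the strand setting of the counting, their reads may not be fully separated.

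Of the aerocyte markers, Ednrb, like Apln, was highest in Control, and Car4 was lowest there. Ednrb (endothelin receptor type B, which clears endothelin-1 in the lung, chromosome 14, 103814625 to 103844402, 8 exons) was at 191.5 CPM in PM10/OVA/Dex, 161 CPM in PM10/OVA/CPX, 157 CPM in PM10/OVA, 171 CPM in PM10 and 230 CPM in Control. Control stood above all others, PM10/OVA/Dex came next, and the intervals of the other 3 overlapped in neighbouring pairs. The ratio to Control was 0.681 (0.648 to 0.717) in PM10/OVA and 0.745 (0.706 to 0.785) in PM10, and the PM10/OVA/Dex to PM10/OVA ratio was 1.22 (1.15 to 1.30). Edn1, the gene of endothelin-1, was likewise highest in Control: it was at 26.8 CPM in PM10/OVA/Dex, 21.6 CPM in PM10/OVA/CPX, 28.6 CPM in PM10/OVA, 25.6 CPM in PM10 and 40.5 CPM in Control.

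Car4 (carbonic anhydrase 4, a membrane-bound enzyme that interconverts carbon dioxide and bicarbonate, chromosome 11, 84957786 to 84966044, 8 exons) was at 216 CPM in PM10/OVA/Dex, 210.5 CPM in PM10/OVA/CPX, 242.5 CPM in PM10/OVA, 220 CPM in PM10 and 185.4 CPM in Control. Control was below every exposed library, PM10/OVA was above the rest, and the other 3 overlapped. The ratio to Control was 1.31 (1.25 to 1.37) in PM10/OVA and 1.18 (1.12 to 1.25) in PM10. The summed leukocyte level was also lowest in Control (811.6 CPM) and highest in PM10/OVA (1466 CPM). Its part in the Car4 level was not tested.

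Plvap (a protein of the diaphragms that span endothelial fenestrae and caveolae, chromosome 8, 71497765 to 71511752, 6 exons) was at 625 CPM in PM10/OVA/Dex, 548 CPM in PM10/OVA/CPX, 610 CPM in PM10/OVA, 438 CPM in PM10 and 487 CPM in Control. The 3 libraries given OVA all stood above the 2 without it. The PM10/OVA to PM10 ratio was 1.39 (1.35 to 1.44), and the PM10/OVA to Control ratio 1.25 (1.22 to 1.29). Both drug libraries stayed above PM10 and Control. Plvap overlaps Gtpbp3 on the opposite strand, with the same limit as for Cdh5.

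Car4 and Plvap have the shortest transcripts of the 10 genes, 1256 and 1987 bases, against 3149 to 6895 bases for the others. Across 13781 genes, ratios to PM10 and to Control in the PM10/OVA library were lower for longer transcripts (Spearman's rho of -0.34 and -0.33, over genes of the same libraries). With that trend of length and GC content removed, the log2 ratio of Car4 in PM10/OVA against Control was 0.21 in place of 0.39, and that of Plvap in PM10/OVA against PM10 0.40 in place of 0.48. The log2 ratio of Flt1 in PM10/OVA against Control changed its sign, with 0.05 in place of -0.14. In PM10 against Control, where rho was -0.09, the Car4 value was 0.19 in place of 0.24.

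At a 1.5-fold difference on the log2(CPM + 1) scale, none of the 10 genes differed in 5 of the 6 comparisons. In PM10 against Control, 0 were higher (8.02% of measured genes were) and 0 lower (5.89%). At 1.2-fold, 5 were lower, namely Apln, Aplnr, Kdr, Flt1 and Ednrb, where 18.2% of measured genes were, and 0 were higher, where 19.1% were. The median log2 ratio of the 10 genes was -0.27, beside -0.18 for the 20 other endothelial genes and -0.00 over all measured genes. In this comparison all 8 cardiomyocyte markers were at least 1.5-fold lower in PM10, with a median of -1.99, and all 7 smooth muscle markers too. Leukocyte markers were higher, with a median of 0.89 over 6 genes. All 6 proliferation markers were at least 1.5-fold higher as well, with a median of 1.94 and a summed level of 231.5 CPM in PM10 and 53.9 CPM in Control. The part of these markers in the endothelial values was not tested. Relative to the median of the 20 other endothelial genes, 2 of the 10 were 1.2-fold lower and 1 higher. On that scale the median over all measured genes was 0.18. The share of all measured genes past 1.2-fold was not computed there.

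In PM10/OVA against Control, 0 of the 10 genes were 1.5-fold higher (8.15% of measured genes) or lower (7.19%). At 1.2-fold, Car4 and Plvap were higher, where 23.5% of measured genes were, and Apln, Kdr and Ednrb lower, where 21.6% were. The median was -0.22, beside -0.12 for the endothelial list and 0.01 over all genes. The same 8 cardiomyocyte markers were lower in PM10/OVA, with a median of -3.17, leukocyte markers were higher with a median of 0.95, and all 6 proliferation markers were 1.5-fold higher with a median of 0.90. Their part in the result was not tested. Both of these comparisons share the Control library, so their values are not independent.

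PM10/OVA against PM10 sets the library given PM10 and the allergen beside the library given PM10 alone. Plvap and Aplnr were at least 1.2-fold higher (15.4% of measured genes) and none of the 10 was lower (16.7%). At 1.5-fold there were 0 in either direction (2.85% higher and 4.73% lower among all measured genes). Kdr had the lowest log2 ratio, -0.14, and Plvap the highest, 0.48, while the median was 0.05. Cardiomyocyte markers had a median of -1.15 here, megakaryocyte and platelet markers one of 0.79, and all 6 proliferation markers were 1.5-fold lower in PM10/OVA with a median of -1.03. Their part was not tested.

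In PM10/OVA/CPX against PM10/OVA, Aplnr alone was 1.2-fold higher (14.7% of measured genes) and none was lower (14.3%), with 0 past 1.5-fold (3.03% higher and 3.12% lower). The median was -0.12, beside 0.01 for the endothelial list, and 8 of the 10 genes were below 0, as were 50.7% of measured genes. Mesothelial markers had a median of -1.29 in this comparison, and their part was not tested.

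In PM10/OVA/Dex against PM10/OVA, Ednrb alone was 1.2-fold higher (17.7% of measured genes) and none was lower (19.7%), with 0 past 1.5-fold (4.63% higher and 5.47% lower). The median of the 10 genes was 0.04, where that of the other 20 endothelial genes was 0.24. Cardiomyocyte markers were higher in PM10/OVA/Dex, with a median of 0.86, as were adipocyte markers, with a median of 1.23, while leukocyte and proliferation markers were lower, with medians of -0.53 and -0.57. Their part was not tested. Relative to the median of those 20 genes, 0 of the 10 were 1.2-fold higher and 4 lower. On that scale the median over all measured genes was -0.25. The share of all measured genes past 1.2-fold was not computed on it. The 2 drug comparisons share the PM10/OVA library.

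Set directly against each other, PM10/OVA/Dex and PM10/OVA/CPX differed by at least 1.2-fold in Flt1 and Tek, which were higher in PM10/OVA/Dex (15.7% of measured genes), and in Aplnr, which was lower (18.6%). Aplnr was the only one to pass 1.5-fold (4.41% of measured genes lower), by a narrow margin: its log2 ratio was -0.59, and with median-of-ratios size factors or a pseudocount of 5 CPM it no longer passed. No gene of the 10 was 1.5-fold higher (3.87%). The median was 0.20 in the 10 genes and 0.20 in the endothelial list. Cardiomyocyte markers were also higher in PM10/OVA/Dex, with a median of 1.32, as were mesothelial markers, with one of 1.29, while proliferation markers had a median of -0.66. Their part was not tested. Relative to the endothelial list's median, 0 of the 10 genes were 1.2-fold higher and 2 lower. On that scale the median over all measured genes was -0.21, and the share of them past 1.2-fold was not computed.

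**Figure D2:**
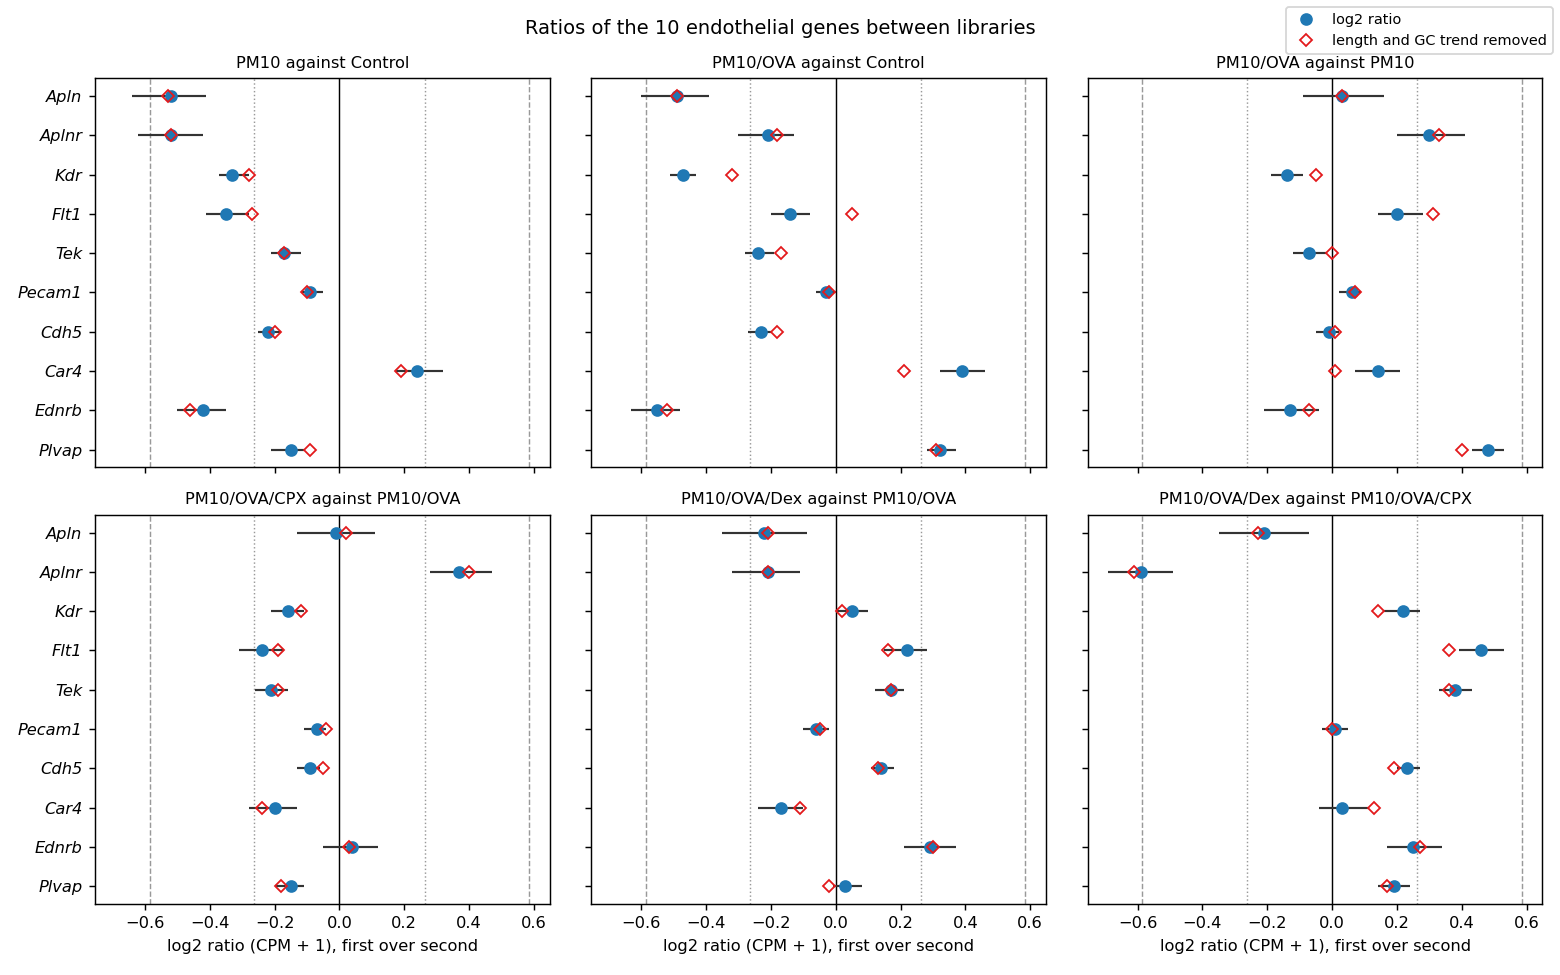
Log2 ratios of the 10 endothelial genes on the log2(CPM + 1) scale in the 6 comparisons, first library over second, as filled circles with lines for the 95% counting interval, and as open diamonds after removal of the trend with transcript length and GC content. Dotted lines mark 1.2-fold and dashed lines 1.5-fold. Apln, Aplnr, Kdr, Flt1 and Ednrb lie left of the 1.2-fold line in PM10 against Control, and Aplnr is past 1.5-fold in the last panel alone.

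Ratios of 2 genes within 1 library do not depend on how libraries are scaled. They still carry the trend with transcript length and GC content given above. The pairs were chosen after the levels were seen and are descriptions. Car4 over Apln, both aerocyte markers, was 3.19 in PM10/OVA/Dex, 2.70 in PM10/OVA/CPX, 3.09 in PM10/OVA, 2.86 in PM10 and 1.68 in Control. Every exposed library was thus above Control, with a PM10 to Control quotient of 1.71 and an approximate (log-normal) interval of 1.55 to 1.87. Car4 over Ednrb was 1.13 in PM10/OVA/Dex, 1.31 in PM10/OVA/CPX, 1.55 in PM10/OVA, 1.28 in PM10 and 0.807 in Control.

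Plvap over Kdr, a general capillary marker over the VEGF receptor, was 1.24 in PM10/OVA/Dex, 1.27 in PM10/OVA/CPX, 1.26 in PM10/OVA, 0.817 in PM10 and 0.724 in Control. The 3 libraries given OVA were close to each other and apart from the other 2, with a PM10/OVA to PM10 quotient of 1.54 (1.47 to 1.61). In PM10/OVA against PM10, removing the length and GC trend gave log2 ratios of 0.40 for Plvap and -0.05 for Kdr. Without removal they were 0.48 and -0.14. Kdr over Flt1 split the same libraries the other way: it was 1.64 in PM10/OVA/Dex, 1.94 in PM10/OVA/CPX, 1.84 in PM10/OVA, 2.35 in PM10 and 2.31 in Control. Aplnr over Apln was highest in PM10/OVA/CPX, at 2.03, against 1.56 in PM10/OVA/Dex, 1.56 in PM10/OVA, 1.29 in PM10 and 1.28 in Control. Cdh5 over Pecam1 stayed between 0.882 and 1.03.

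**Figure D3:**
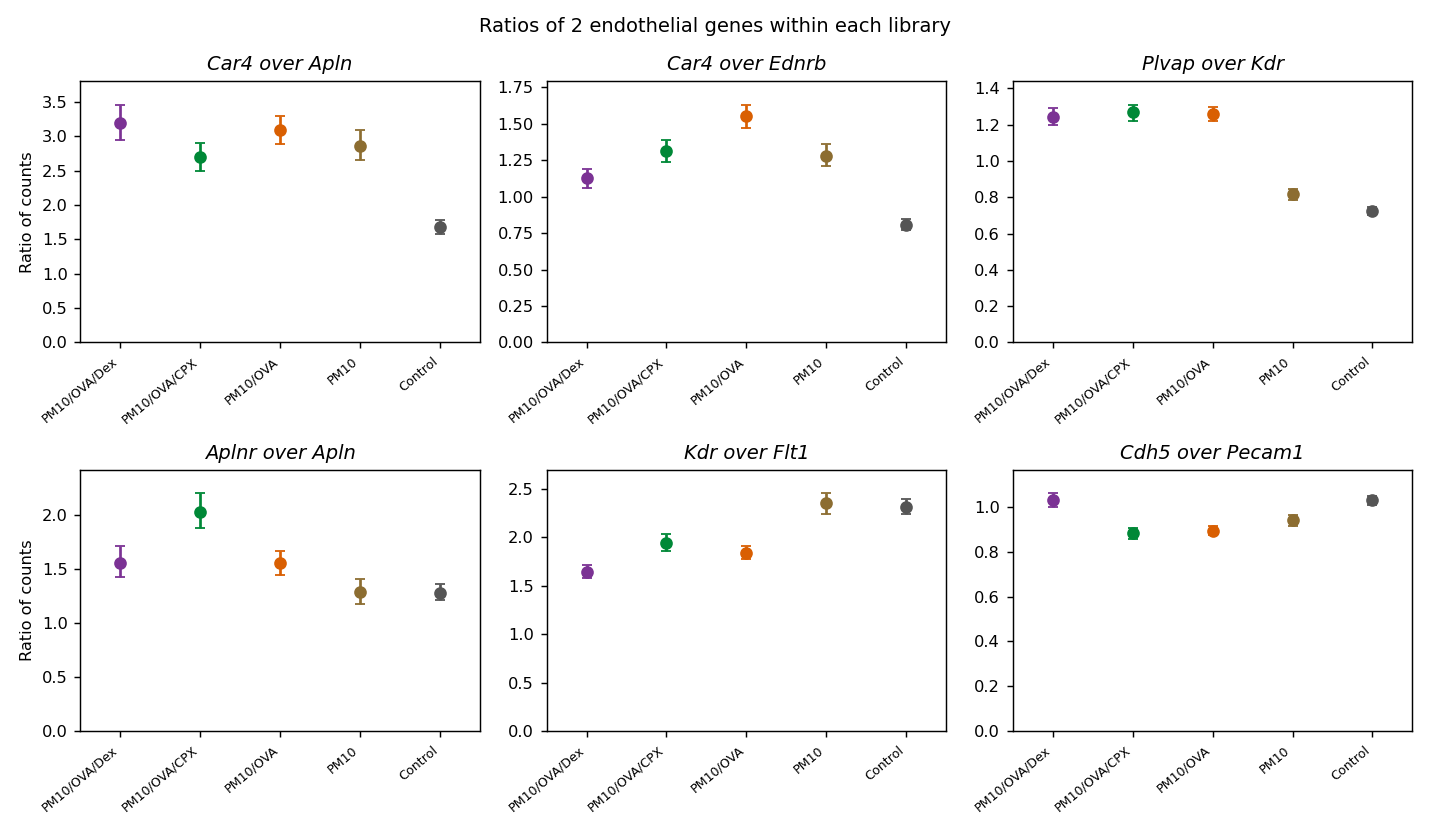
Ratios of the counts of 2 endothelial genes within each library (y axis, from 0), with 1 point per library and 95% intervals for counting error. Car4 over Apln and Car4 over Ednrb are lowest in Control, Plvap over Kdr is higher in the 3 libraries given OVA than in PM10 and Control, and Kdr over Flt1 is lower in those 3.

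Most other markers of the capillary classes were below 0 in PM10 against Control, where 50.3% of measured genes were. This held for 8 of 10 further general capillary genes, with a median of -0.07, and for 19 of the 20 other endothelial genes. Of 10 further aerocyte genes, 9 were below 0, with a median of -0.21. Rprml (8.20 CPM in PM10 and 14.2 CPM in Control) and Chst1 (17.7 CPM in PM10 and 29.6 CPM in Control) were at least 1.5-fold lower. Sirpa, which macrophages also express, was 1.5-fold higher, at 222 CPM in PM10 and 117 CPM in Control. Among all measured genes, 8.02% were 1.5-fold higher and 5.89% lower. In PM10/OVA/Dex against PM10/OVA the list's median was 0.23, and 4 of the 10 were 1.2-fold higher (17.7% of measured genes). Among them were Prx (442 CPM in PM10/OVA/Dex and 331 CPM in PM10/OVA) and Fibin (56.4 CPM in PM10/OVA/Dex and 44.9 CPM in PM10/OVA).

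Of 10 further general capillary genes, 2 were at least 1.5-fold lower in PM10/OVA against Control (7.19% of measured genes) and 1 was higher (8.15%). Sema3c, a guidance cue, was at 291 CPM in PM10/OVA and 498 CPM in Control, Glp1r, the incretin receptor, at 16.9 CPM in PM10/OVA and 26.0 CPM in Control, and Lpl, lipoprotein lipase, which macrophages and fat cells also make, at 499 CPM in PM10/OVA and 331 CPM in Control. Glp1r was the only one past 1.5-fold in PM10/OVA/CPX against PM10/OVA, with a ratio of 2.10 (1.80 to 2.45). Among all measured genes, 3.03% were higher and 3.12% lower by that fold. The list's median was -0.28 in PM10/OVA against Control, 0.10 in PM10/OVA/CPX against PM10/OVA and 0.12 in PM10/OVA/Dex against PM10/OVA.

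Among the endothelial and pathway lists, the transcription factors had the highest median in PM10/OVA/Dex against PM10/OVA. Of 15 transcription factors, 4 were at least 1.5-fold higher there (4.63% of measured genes) and none lower (5.47%), with a list median of 0.44. At 1.2-fold, 10 were higher (17.7%) and 2 lower (19.7%). Klf4, a factor of quiescent endothelium that epithelial and other cells also express, was at 307 CPM in PM10/OVA/Dex and 104 CPM in PM10/OVA, a ratio of 2.96 (2.79 to 3.14). Foxf1, a factor of lung capillaries and mesenchyme, was at 364 CPM in PM10/OVA/Dex and 175.5 CPM in PM10/OVA, and Sox18, a factor of vascular and lymphatic endothelium, at 181.5 CPM in PM10/OVA/Dex and 95.8 CPM in PM10/OVA. In PM10/OVA/CPX against PM10/OVA, 3 of the 15 were 1.5-fold higher (3.03% of measured genes). Their ratios were 1.56 for Sox18, 1.55 for Sox7 and 1.51 for Klf4.

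Notch genes, which set arterial fate and restrain sprouting, had a median of 0.37 in PM10/OVA/Dex against PM10/OVA. Of 9 genes, 2 were at least 1.5-fold higher (4.63% of measured genes) and none lower (5.47%). The 2 higher were Hes1 (82.2 CPM in PM10/OVA/Dex and 37.9 CPM in PM10/OVA) and Notch1 (236 CPM in PM10/OVA/Dex and 156 CPM in PM10/OVA). Whole-lung RNA does not show which cells carried them. Arterial genes had a median of -0.37 in PM10 against Control, led by the kinase gene Bmx, at 13.1 CPM in PM10 and 24.3 CPM in Control. In PM10/OVA/Dex against PM10/OVA their median was 0.31, with Efnb2 (ephrin B2) at 468 CPM in PM10/OVA/Dex and 285 CPM in PM10/OVA. Of 12 genes of tip cells, the leading cells of a vessel sprout, 3 were at least 1.5-fold higher in PM10/OVA against PM10 and 1 lower. Among all measured genes, 2.85% were higher and 4.73% lower by that fold. Esm1 was at 80.6 CPM in PM10/OVA and 48.0 CPM in PM10, beside Pgf given above, and Nid2, a basement membrane gene, at 7.70 CPM in PM10/OVA and 12.6 CPM in PM10.

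**Figure D4:**
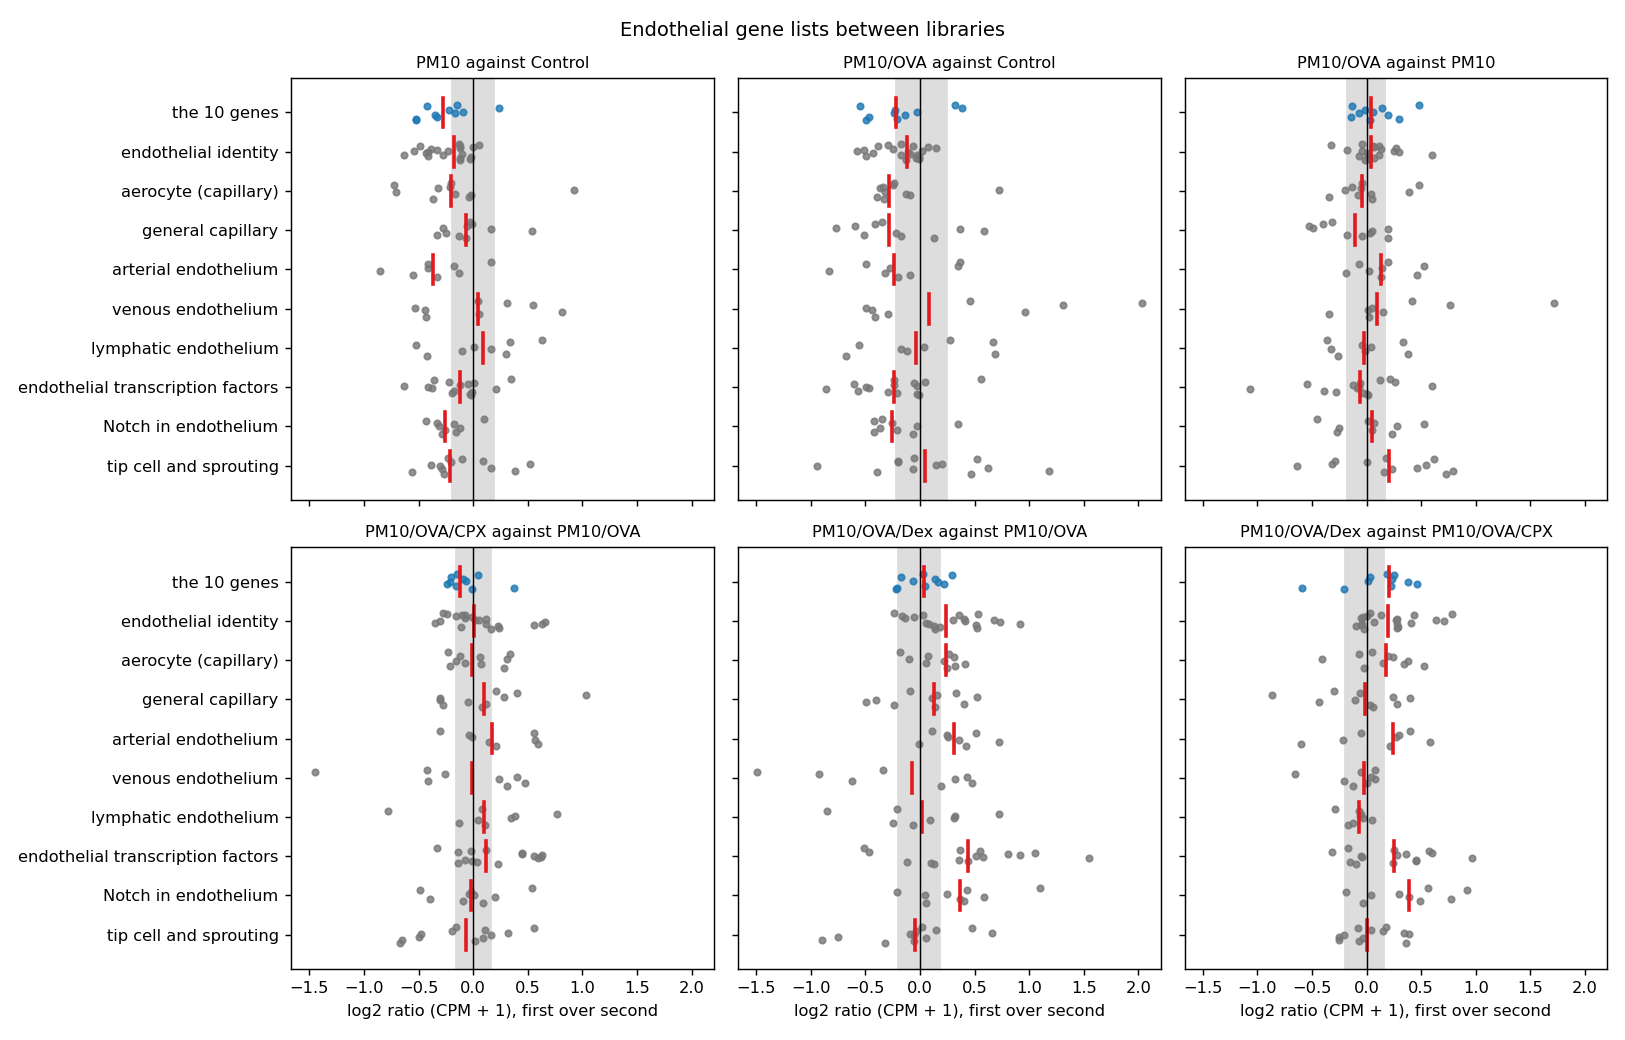
Log2 ratios of the 10 genes (blue points) and of the members of 9 other endothelial gene lists (grey points) in the 6 comparisons, with red lines at each median and a grey band between the quartiles of all measured genes. In PM10/OVA/Dex against PM10/OVA the median of the 10 genes is 0.04, while those of the transcription factor and Notch lists are 0.44 and 0.37.

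**Figure D5:**
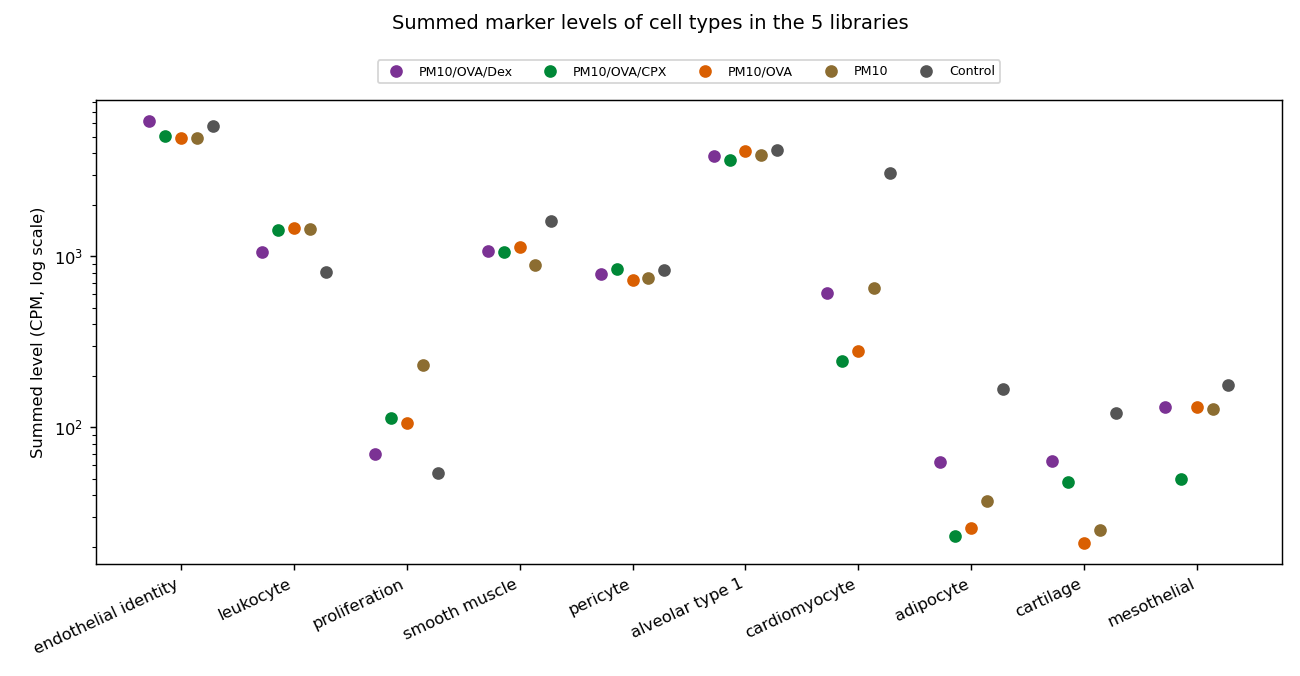
Summed levels in CPM (y axis, log scale) of the marker lists of endothelium and of other cell types in the 5 libraries. Cardiomyocyte, adipocyte, cartilage and smooth muscle sums are highest in Control, and the leukocyte sum is lowest there.

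Apln and Pecam1 were searched for others of like pattern among the 11585 genes whose mean reached 5 CPM, by the root mean square difference of centred log2(CPM + 1) over the 5 libraries. Nearest to Apln, with the widest range, were Cyp2j9 (0.031), Hs3st1 (0.0475) and Smarca1 (0.0475), and 56 genes lay within 0.1 of it. Nearest to Pecam1, with the narrowest, were Rbsn (0.0115), Pdcd7 (0.0129) and Golga2 (0.0143), and 2485 genes lay within 0.1. All of these points come from the same 5 libraries and share their depth and scaling.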

How the data were processed

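RNA of whole lung was sequenced in 5 libraries, 1 per group. Trizol was used for extraction, and 1.3 ug of total RNA entered a NEBNext Ultra II Directional library, per the labels' protocols. The aligner was TopHat and the build mm10 (GRCm38), per the submitters' processing notes. The sources used here do not give the counting tool, its annotation or its strand setting. Raw counts per gene symbol are what the authors deposited. Counts were scaled to CPM with TMM factors (edgeR 4.0.16, R 4.3.3). Level intervals are exact Poisson (Garwood), ratio intervals exact conditional (Clopper-Pearson). Log2 ratios use a pseudocount of 1 CPM and understate differences of low genes. Levels per kilobase use the longest coding transcript of GENCODE M21, and length and GC content were known for 13781 of the 14305 measured genes. The scripts were tested on simulated data. The 10 genes and the lists were chosen with earlier results of these data known. All 10 genes are described, with the ligands of their receptors and, per list, up to 3 genes of largest absolute log2 ratio. Alternatives were other scalings, pseudocounts, filters and thresholds. With 1 library per group, no test was run.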

Additional observations from a re-analysis of the deposited data

How the results depend on the processing

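The 60 ratios of the 10 endothelial genes were recomputed under other scalings and pseudocounts. They moved by at most 0.01 on the log2 scale with median-of-ratios size factors, 0.06 with library totals alone, 0.02 with a pseudocount of 5 CPM and 0.01 with one of 0.25. The 17 ratios past 1.2-fold kept their sign under all of these. Removing the trend with length and GC content moved ratios by up to 0.19. It turned the sign of 6 ratios or brought them to 0 at 2 decimals, none of them among the 17. Of those 17, 1 no longer passed 1.2-fold, while 2 others did. Centring on the endothelial identity list moved ratios by up to 0.24 and turned 13 signs, none among the 17, of which 7 no longer passed, while 6 others did. Under it, at 1.2-fold, 1 gene was higher and 2 lower in PM10 against Control, and 0 higher and 4 lower in PM10/OVA/Dex against PM10/OVA. In PM10/OVA/Dex against PM10/OVA/CPX, 0 were higher and 2 lower. The centred median over all measured genes was 0.18, -0.25 and -0.21, in the same order of comparisons. Shares of all measured genes past 1.2-fold were not computed after centring. With library totals alone, 5 genes in place of 3 were 1.2-fold lower in PM10/OVA against Control. TMM factors from the 4 exposed libraries alone, an alternative chosen after seeing the data, apply to the 40 ratios between those libraries and moved none of them by 0.01 or more.

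Counts of endothelial genes past the fold depended on it. At 1.2-fold they were 5 lower in PM10 against Control, 2 higher and 3 lower in PM10/OVA against Control, 2 higher in PM10/OVA against PM10, 1 higher in PM10/OVA/CPX against PM10/OVA, 1 higher in PM10/OVA/Dex against PM10/OVA and 2 higher in PM10/OVA/Dex against PM10/OVA/CPX. The lower count of that last comparison was 0 with median-of-ratios size factors, with a pseudocount of 5 CPM and at 2-fold, against 1 as reported. With library totals alone, 1 gene was 1.5-fold lower in PM10/OVA against Control.

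Counts over all measured genes moved with thresholds and filters. At 2-fold, those higher and lower were 529 and 292 in PM10 against Control, 454 and 390 in PM10/OVA against Control, 99 and 182 in PM10/OVA against PM10, 91 and 109 in PM10/OVA/CPX against PM10/OVA, 172 and 229 in PM10/OVA/Dex against PM10/OVA, and 151 and 105 in PM10/OVA/Dex against PM10/OVA/CPX. At 1.2-fold, in the same order of comparisons, they were 2737 and 2600, 3357 and 3093, 2196 and 2396, 2105 and 2048, 2539 and 2812, and 2239 and 2662. With a pseudocount of 5 CPM, 379 were lower in PM10 against Control, 737 higher and 549 lower in PM10/OVA against Control, 153 higher and 314 lower in PM10/OVA against PM10, 126 higher and 204 lower in PM10/OVA/CPX against PM10/OVA, 259 higher and 386 lower in PM10/OVA/Dex against PM10/OVA, and 223 higher and 190 lower in PM10/OVA/Dex against PM10/OVA/CPX. With genes of at least 5 CPM alone, 441 were lower in PM10 against Control, 597 lower in PM10/OVA against Control, 243 higher and 410 lower in PM10/OVA against PM10, 219 higher and 290 lower in PM10/OVA/CPX against PM10/OVA, 389 higher in PM10/OVA/Dex against PM10/OVA, and 322 higher and 375 lower in PM10/OVA/Dex against PM10/OVA/CPX. With a pseudocount of 0.25 CPM, 656 were higher in PM10/OVA/CPX against PM10/OVA.

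No paired analysis was possible because each group holds 1 library, and leaving out a library would leave its group empty. The lowest count of the 10 genes was 803. Intervals cover counting error and not the difference between animals.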

Other observations

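The 8 venous genes had no common direction. In PM10/OVA against Control, 4 were at least 1.2-fold higher (23.5% of measured genes), among them Selp, Ackr1 and Vcam1. The other 4 were lower by that fold (21.6%), namely Vwf (ratio 0.754), Ephb4 (0.712), Nr2f2 (0.736) and Slc6a2 (0.806). Selp (P-selectin, the adhesion molecule that starts leukocyte rolling) was at 7.15 CPM in PM10/OVA/Dex, 7.43 CPM in PM10/OVA/CPX, 21.95 CPM in PM10/OVA, 5.96 CPM in PM10 and 4.61 CPM in Control. It was highest in PM10/OVA, with a PM10/OVA to PM10 ratio of 3.68 (2.85 to 4.81). Platelets also carry Selp, and Pf4, a platelet gene, was at 18.3 CPM in PM10/OVA/Dex, 18.2 CPM in PM10/OVA/CPX, 50.3 CPM in PM10/OVA, 15.4 CPM in PM10 and 10.4 CPM in Control, so that it had the same highest library. Of the other megakaryocyte and platelet genes, Ppbp, Gp1bb and Itgb3 were also highest in PM10/OVA. Itga2b and Gp5 were highest in PM10/OVA/Dex, and Gp9, with at most 19 counts per library, in Control. The part of platelets in the Selp level was not tested. Vcam1, which tethers eosinophils and lymphocytes, was at 78.5 CPM in PM10/OVA/Dex, 90.9 CPM in PM10/OVA/CPX, 121 CPM in PM10/OVA, 109 CPM in PM10 and 61.8 CPM in Control. Over the 8 venous genes the median log2 ratio in PM10/OVA against PM10 was 0.10. At 1.5-fold, 2 were higher (2.85% of measured genes) and none lower (4.73%).

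Lymphatic genes showed no common direction. Of 8, Lyve1, which some macrophages also express, was at 277 CPM in PM10/OVA/Dex, 300.5 CPM in PM10/OVA/CPX, 328.5 CPM in PM10/OVA, 252 CPM in PM10 and 204 CPM in Control. Prox1, the factor that defines lymphatic identity, was at 1.60 CPM in PM10/OVA/Dex, 1.92 CPM in PM10/OVA/CPX, 1.70 CPM in PM10/OVA, 2.24 CPM in PM10 and 3.34 CPM in Control, with between 19 and 58 counts per library.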
